A study of Mus musculus with 3 samples.

Results

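Described here are 44 genes of the cell division programme in mouse intestinal organoids, 26 that act in mitosis or shortly before it and 18 that act in or shortly before S phase, the stage in which DNA is copied. They were taken by symbol from the 32285 genes of the deposited count tables, and all 44 were found. Organoids are small hollow bodies of epithelium grown in a gel, and they were analysed by droplet-based single-cell RNA sequencing (scRNA-seq), with 1 library in each of 3 groups of C57BL/6 mice. The WT group was labelled as wild type, the LApc group as Lgr5-CreERT2;Apc fl/fl and the LApcL group as carrying the same alleles together with Lef1 fl/fl. In LApc and LApcL the Cre recombinase is made from the Lgr5 gene, so tamoxifen switches it on in Lgr5-expressing stem cells and the deletion is meant to pass to their progeny. Apc is a brake on Wnt signalling, and Lef1 is a transcription factor of that pathway. All 3 groups, WT included, received 2 doses of tamoxifen at 2 mg when the mice were 7 to 8 weeks old, and all organoids were taken at passage 3 on day 6. Analysis followed 21 days after tamoxifen in WT and LApcL and 29 days after it in LApc. Genotype, interval after tamoxifen and library therefore change together and cannot be told apart, and how many mice stood behind a library is not given in the sources used here. The study's methods describe LApc and LApcL organoids kept without growth factors at first, with Wnt3a and other factors added in some experiments from passage 3 on, and do not give the medium of the organoids sequenced here, WT included.

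Levels were measured in barcodes found in 1 library only, with at least 10000 unique molecular identifiers (UMIs, each a tag on a single captured RNA molecule) and with at most 20% of UMIs from mitochondrial genes. These limits left 1208 WT, 2161 LApc and 1931 LApcL cells, with medians of 38074, 34377 and 32584 UMIs. Every cell was thinned at random to 10000 UMIs, so a level below is the mean number of UMIs of a gene per 10000 and all cells count alike. The mitochondrial limit alone took out 26.1% of deep barcodes of WT, 12.01% of LApc and 11.8% of LApcL, and 3195 mostly shallow barcodes occurred in all 3 libraries and were not used here. The summed level of 4 epithelial markers (Epcam, Krt8, Krt18 and Cdh1) was 28.7 in WT, 54.6 in LApc and 59.2 in LApcL, while 5 endothelial, 4 immune and 4 fibroblast markers summed to at most 0.148, 0.00648 and 0.0166 in any library. Of the enterocyte markers, 7 genes of the differentiated absorptive cell, the summed level was 114 in WT, 0.118 in LApc and 0.0425 in LApcL, with Fabp1, a fatty acid carrier, at 84.4, 0.00185 and 0. Summed in the same order, Paneth cell markers had 2.92, 18.6 and 49.6, goblet cell markers 18.4, 4.56 and 9.96, enteroendocrine markers 19.6, 0.162 and 0.0425 and stem cell markers 1.86, 7.65 and 9.62, where single genes could differ from their sum (Lyz1 0.304, 4.75 and 3.44, Defa24 0.843, 4.65 and 28.7), and the part of these cell types in the results below was not tested beyond the enterocyte markers. Enterocyte-marker-high cells, those with at least 50 such UMIs, made up 522 of the 1208 WT cells and 0 cells of the other libraries, so the main values of comparisons with WT are given with and without them. Leaving them out takes cells from WT only. Every mitosis and S phase gene described here had a lower level in them than in the other WT cells. Their removal therefore lowers the level ratio of LApc against WT for each of these genes, while LApc cells with few such UMIs stay in. The level of Lef1 was 0.0124 in WT, 0.788 in LApc and 0.541 in LApcL, and that of Apc was 0.208, 0.933 and 1.02. Reads of this assay come from the 3′ end of a transcript and the deleted exons are not given in the sources used here, so these 2 levels do not measure how complete the deletions were. With 1 library per group there is no replicate, no difference below was tested, and each interval is a 95% interval that covers counting error only.

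Cells enter division when cyclin-dependent kinases release the E2F transcription factors, which switch on genes for DNA copying: the Mcm helicase, the sliding clamp that holds the polymerase on DNA, and the enzymes that make nucleotides. Later, B-Myb and FoxM1 act through the DREAM-related complex at CHR elements, and with NF-Y at CCAAT boxes, to switch on cyclin B, the mitotic kinases and the spindle genes. In the intestine, dividing cells are found in the crypts, and Wnt signalling keeps stem cells and the transit-amplifying cells next to them in the cycle. The anaphase-promoting complex, to which Cdc20 and Ube2c belong as partners, shares its abbreviation with the Apc gene but is unrelated to it.

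The promoters of the 2 gene groups differed in the short motifs they held. RefSeq promoters on build GRCm38.p6, each from 250 bases before to 50 bases after a start site, were present for 38 of the 44 genes: 15 S phase genes with 16 promoters and 23 mitosis genes with 23. Aurkb, Ccna2, Ccne2, Gins2, Mcm4 and Tpx2 had no entry. An E2F-type core (TTCCCGC or its variant TTGGCGC, the variant TTCGCGC or the variant TTGCCGC, on either strand) was present in 9 of 16 S phase promoters (56.3%), 4 of 23 mitosis promoters (17.4%) and 3145 of 32851 promoters in all (9.57%). A CHR-type core (TTTGAA or TTCGAA, on either strand) was present in 2 of 16 S phase promoters (12.5%), 17 of 23 mitosis promoters (73.9%) and 19.2% of all. The CCAAT box (CCAAT, on either strand) stood in 68.8%, 86.96% and 37.4%, and the 17 mitosis promoters with a CHR-type core also held a CCAAT box, a pair found in 7.52% of all promoters. Matches on opposite strands can overlap, and each match is counted. A match is a run of letters, not a site shown to be bound, and a promoter without one tells nothing about the factor.

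The promoters below are shown for the helicase gene with the most E2F-type cores (Mcm6), the gene with the highest ratio in both comparisons (Cdc6), a sliding clamp gene with no E2F-type core in this window (Pcna), the gene with the most CHR-type cores (Top2a) and the highest mitosis gene of LApcL against LApc (Mki67). They lie at chr1:128359656-128359955 (minus strand), chr11:98907901-98908200 (plus), chr2:132253131-132253430 (minus), chr11:99024140-99024439 (minus) and chr7:135716330-135716629 (minus). Capitals mark E2F-type cores, CHR-type cores and CCAAT boxes on either strand, and each line reads 5′ to 3′ along the gene's own strand.
Mcm6: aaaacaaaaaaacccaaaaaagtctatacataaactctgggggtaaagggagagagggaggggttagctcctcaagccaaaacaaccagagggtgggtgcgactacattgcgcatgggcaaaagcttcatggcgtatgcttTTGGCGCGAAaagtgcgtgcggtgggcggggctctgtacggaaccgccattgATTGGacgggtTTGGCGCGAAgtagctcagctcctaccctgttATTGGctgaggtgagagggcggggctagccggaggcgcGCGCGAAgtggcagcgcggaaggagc
Cdc6: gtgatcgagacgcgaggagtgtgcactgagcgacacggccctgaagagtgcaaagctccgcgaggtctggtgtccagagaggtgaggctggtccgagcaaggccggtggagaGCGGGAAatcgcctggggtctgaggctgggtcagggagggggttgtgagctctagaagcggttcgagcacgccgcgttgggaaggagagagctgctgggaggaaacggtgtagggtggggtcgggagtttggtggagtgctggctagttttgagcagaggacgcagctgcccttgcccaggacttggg
Pcna: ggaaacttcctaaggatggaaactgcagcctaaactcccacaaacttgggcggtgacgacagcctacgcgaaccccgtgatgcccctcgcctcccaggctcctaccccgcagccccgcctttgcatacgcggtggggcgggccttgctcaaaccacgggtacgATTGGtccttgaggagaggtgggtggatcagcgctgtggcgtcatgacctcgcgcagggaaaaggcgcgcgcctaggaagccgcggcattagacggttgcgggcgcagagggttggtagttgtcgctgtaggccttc
Top2a: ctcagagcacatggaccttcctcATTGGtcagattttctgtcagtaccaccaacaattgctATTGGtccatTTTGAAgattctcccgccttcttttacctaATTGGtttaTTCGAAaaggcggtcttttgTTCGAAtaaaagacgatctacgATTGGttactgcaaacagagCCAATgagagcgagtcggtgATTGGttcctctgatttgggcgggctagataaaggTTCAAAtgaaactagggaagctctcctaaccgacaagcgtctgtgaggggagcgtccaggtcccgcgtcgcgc
Mki67: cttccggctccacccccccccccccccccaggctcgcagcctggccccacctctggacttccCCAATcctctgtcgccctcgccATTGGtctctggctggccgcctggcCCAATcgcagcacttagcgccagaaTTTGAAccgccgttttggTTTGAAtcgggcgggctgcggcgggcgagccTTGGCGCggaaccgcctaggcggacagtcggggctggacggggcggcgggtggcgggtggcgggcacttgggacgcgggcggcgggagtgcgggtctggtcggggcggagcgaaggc

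Mcm6 held 5 E2F-type cores, 2 CCAAT boxes and 0 CHR-type cores. Top2a held 4 CHR-type cores and 6 CCAAT boxes with 0 E2F-type cores, and Mki67 held 1 E2F-type core, 2 CHR-type cores and 3 CCAAT boxes. Cdc6 held a single core, 1 of the E2F type, and Pcna 1 CCAAT box only. In the gene annotation Cdc6 starts at chr11:98907801, before its window, so the sequence ahead of that start was not scanned. This also holds for some other genes, such as E2f1.

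Taken as sums, both groups of genes were highest in LApcL and lowest in WT. The 26 mitosis genes together had a level of 10.5 UMIs per 10000 in WT (95% Poisson interval 10.3 to 10.7), 16.3 in LApc (16.1 to 16.5) and 25.9 in LApcL (25.6 to 26.1). The 18 S phase genes together had 3.67 in WT (3.56 to 3.78), 9.15 in LApc (9.03 to 9.28) and 12.9 in LApcL (12.7 to 13.1). The 2 sums did not differ between libraries by the same factor. The ratio of S phase to mitosis UMIs was 0.349 in WT (0.337 to 0.362), 0.562 in LApc (0.553 to 0.572) and 0.499 in LApcL (0.491 to 0.507). Relative to their mitosis genes, WT cells thus held the fewest S phase transcripts and LApc cells the most. In WT cells other than the enterocyte-marker-high ones the sums were 15.2 for mitosis and 5.02 for S phase, with a ratio of 0.329, so the mitosis sum came near that of LApc and the ratio did not. Hmgb2 alone carried a large part of the mitosis sum, and without it the ratio was 0.491, 0.865 and 0.765, in the same order. On the log2 scale the ratio differed by -0.17 between LApcL and LApc (-0.21 to -0.14) and by 0.69 between LApc and WT (0.63 to 0.74). Among cells with 10000 to 20000 UMIs before thinning the first of these turned to 0.39, with ratios of 0.427 in LApcL and 0.326 in LApc.

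Among the genes of chromosome structure, Hmgb2, a DNA-bending protein of dividing cells, had levels of 3.03 UMIs per 10000 in WT, 5.70 in LApc and 8.99 in LApcL. Mki67, the Ki-67 protein that coats mitotic chromosomes, had 0.760, 0.907 and 1.71 in the same order. Top2a, the topoisomerase that untangles sister chromatids, had 0.573, 1.003 and 1.70. On the log2 scale the step from LApc to LApcL was the larger for Mki67 (0.92 against 0.26), and for Hmgb2 that from WT to LApc (0.91 against 0.66), which was 0.44 without the enterocyte-marker-high WT cells. Of Cdk1 and its partners, Cdk1, the kinase that starts mitosis, had 0.245 in WT, 0.393 in LApc and 0.598 in LApcL. Its cyclins had 0.214, 0.318 and 0.470 (Ccna2), 0.157, 0.2402 and 0.347 (Ccnb1) and 0.166, 0.307 and 0.530 (Ccnb2). Cks2, a small subunit that binds Cdk1, had 0.927, 1.26 and 1.37, so its levels in LApc and LApcL lay close together where those of the cyclins did not. In protein breakdown and the spindle checkpoint, Ube2c, the ubiquitin carrier of the anaphase-promoting complex, had 0.829, 0.952 and 1.56, and its activator Cdc20 had 0.180, 0.297 and 0.412. Cdca3, a mitotic entry factor, had 0.339, 0.354 and 0.569. The checkpoint kinases had 0.0811, 0.130 and 0.196 for Bub1 and 0.123, 0.161 and 0.237 for Bub1b. All of these genes were highest in LApcL.

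The mitotic kinases had 0.123 in WT, 0.180 in LApc and 0.263 in LApcL (Plk1), 0.108, 0.126 and 0.213 (Aurka) and 0.0671, 0.154 and 0.253 (Aurkb). The partners of Aurkb in the chromosomal passenger complex had 0.487, 0.464 and 0.781 (Birc5, also called survivin) and 0.418, 0.505 and 0.803 (Cdca8). Birc5 was the single mitosis gene whose level in WT was above that in LApc, by less than its counting interval. At the centromere, Cenpa, the histone that marks it, had 0.305, 0.391 and 0.651, and the kinetochore motor Cenpe had 0.261, 0.349 and 0.604. Cenpf, a large kinetochore protein, had 0.230, 0.708 and 1.31, the steepest course of the 26 mitosis genes. Of the spindle genes, the motor Kif11 had 0.189, 0.214 and 0.341, and Kif23, a motor of cytokinesis, had 0.142, 0.300 and 0.454. Tpx2, an activator of Aurka on the spindle, had 0.214, 0.350 and 0.580. The microtubule binders Nusap1 and Tacc3 had 0.195, 0.300 and 0.542 and 0.133, 0.213 and 0.374. The order WT, LApc, LApcL from lowest to highest level held for 25 of the 26 mitosis genes, and for 12 of them when the enterocyte-marker-high WT cells were left out.

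All 18 S phase genes had that order, with the enterocyte-marker-high cells in or out. Of the sliding clamp genes, Pcna, the clamp itself, had 0.785 UMIs per 10000 in WT, 1.47 in LApc and 1.67 in LApcL, and its binding partner Pclaf had 0.417, 1.28 and 1.88. The 6 subunits of the Mcm helicase, which opens DNA at the fork, had levels of 0.0911, 0.354 and 0.488 (Mcm2), 0.156, 0.581 and 0.854 (Mcm3) and 0.1498, 0.556 and 0.865 (Mcm4) in WT, LApc and LApcL. The others had 0.121, 0.376 and 0.589 (Mcm5), 0.257, 0.677 and 1.06 (Mcm6) and 0.263, 0.724 and 1.02 (Mcm7). For every subunit the step from WT to LApc was larger than that from LApc to LApcL on the log2 scale. Cdc6, which loads the helicase onto origins, had 0.0257, 0.122 and 0.258, and Gins2, part of the active helicase, had 0.0596, 0.251 and 0.374. In nucleotide supply, the ribonucleotide reductase subunits had 0.209, 0.528 and 0.837 (Rrm1) and 0.180, 0.301 and 0.455 (Rrm2), and thymidylate synthase, Tyms, had 0.241, 0.5002 and 0.738. Ung, which removes uracil from DNA, had 0.0811, 0.175 and 0.301. These 6 genes of loading, firing and supply were all at their highest in LApcL. Slbp, the protein that binds the stem loop of histone messengers, had 0.459, 0.849 and 0.960. E2f1, itself a factor of entry into S phase, had 0.0679, 0.136 and 0.227, and the E cyclins had 0.0563, 0.194 and 0.202 (Ccne1) and 0.0464, 0.0810 and 0.122 (Ccne2). Ccne1 and Slbp thus differed little between LApc and LApcL, unlike E2f1.

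**Figure D1:**
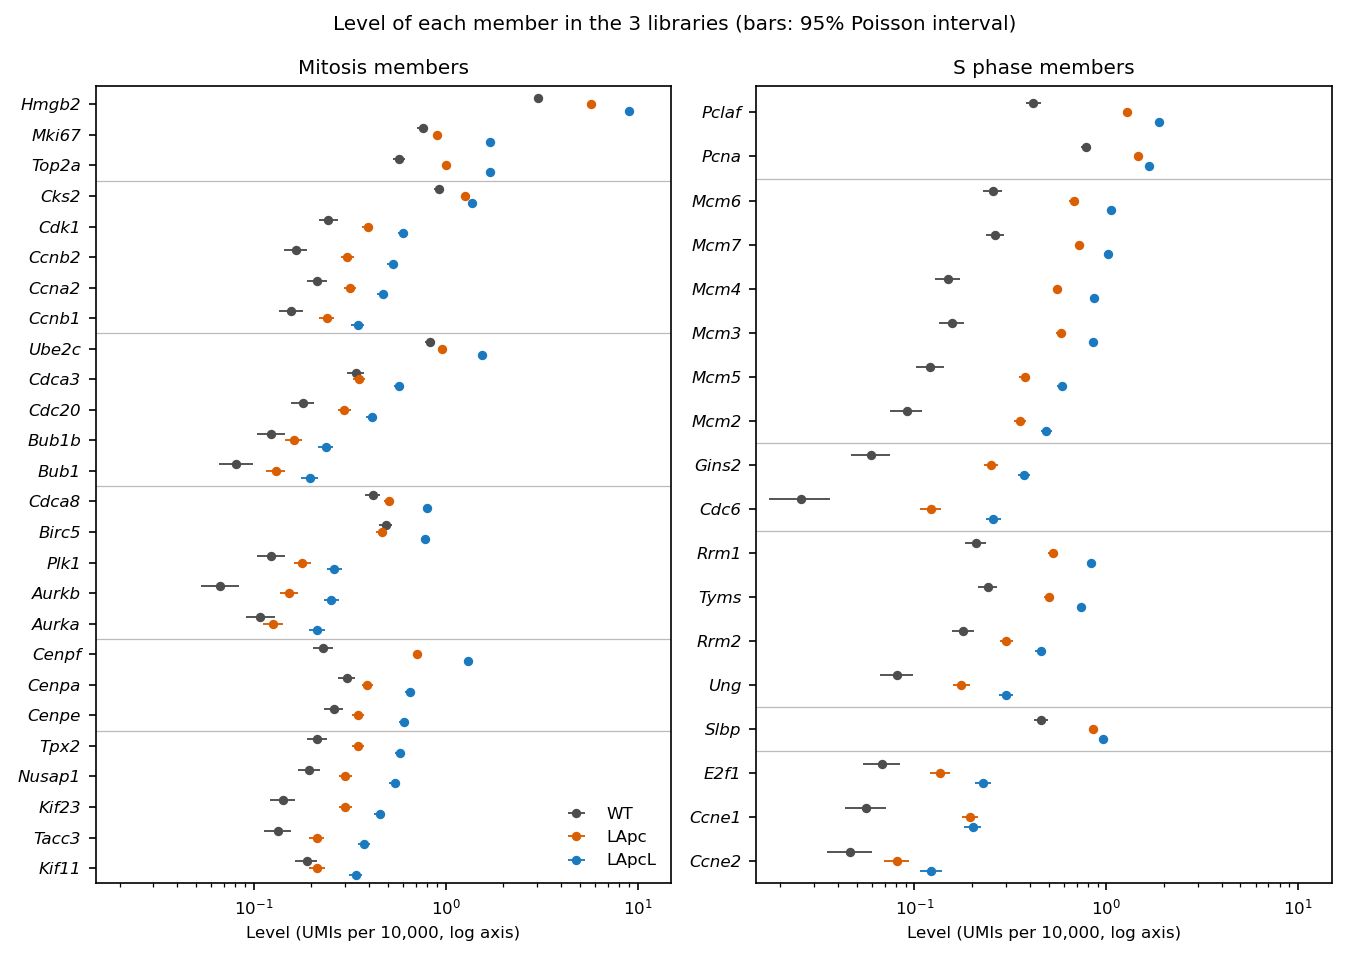
Level of each of the 26 mitosis (left) and 18 S phase genes (right) in UMIs per 10000 on a log axis, with WT in grey, LApc in orange and LApcL in blue; bars are 95% Poisson intervals and grey lines separate the roles. The LApcL point is the rightmost for every gene, while WT and LApc lie close together for Birc5, Cdca3, Kif11 and Aurka among the mitosis genes and lie far apart for the helicase genes Mcm2 to Mcm7.

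LApcL against LApc asks what the Lef1 genotype goes with when Apc is targeted in both. All 44 genes had a higher level in LApcL, with an interval of the log2 ratio above 0 for 26 of 26 mitosis genes and 17 of 18 S phase genes. At least 1.5-fold higher were 20 of the 26 mitosis genes and 9 of the 18 S phase genes, where 8.49% of all 10496 genes with a level of at least 0.05 in either library were that much higher in LApcL. None of the 44 was 1.5-fold lower, beside 9% of all genes, and 1 of the 44, Cdc6, was at least 2-fold higher, beside 2.68%. The median log2 ratio was 0.70 over the mitosis genes and 0.59 over the S phase genes, and 0.037 over all genes. The centromere genes (median 0.79, 3 of 3 past 1.5-fold), the spindle genes (0.73, 5 of 5) and the genes of chromosome structure (0.76, 3 of 3) had high medians on the mitosis side, and origin licensing and firing (0.83, 1 of 2) had the highest median of any role, with Cdc6 at 1.08 and Gins2 at 0.58. Past 1.5-fold were also 3 of 4 genes of nucleotide supply and uracil removal and 2 of 3 of entry into S phase, and the lowest medians were those of the sliding clamp (0.37, 0 of 2) and of Slbp (0.18). Of the cyclins and Cdk1 partners 2 of 5, of the breakdown and checkpoint genes 3 of 5, of the kinases and passengers 4 of 5 and of the helicase genes 3 of 6 were past 1.5-fold. In each role the remaining genes were also higher in LApcL, by less than 1.5-fold.

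The 3 genes with the highest ratio were Cdc6, Mki67 and Cenpf. Cdc6 was 2.12-fold higher in LApcL (1.82 to 2.47), and was detected in 17.7% of LApcL cells (exact binomial interval 16.03 to 19.5) and 9.39% of LApc cells (8.20 to 10.7), with 1.46 and 1.30 UMIs per positive cell. Mki67 was 1.89-fold higher (1.78 to 2.00), in 42.2% (39.99 to 44.4) against 25.03% of cells (23.2 to 26.9), with 4.06 against 3.62 UMIs per positive cell. Cenpf was 1.85-fold higher (1.73 to 1.97), in 34.1% (32.0 to 36.3) against 20.1% of cells (18.4 to 21.8), with 3.83 against 3.53. For these 3 genes both the share of cells and the amount in a positive cell were higher in LApcL. For its LApc and LApcL organoids the paper describes the shares of Ki67-positive and of proliferating cells as alike, unlike the Mki67 shares here. The shares here rest on cells with at least 10000 UMIs, a limit the paper's methods do not name. In single-library barcodes under it, Mki67 had 116 CPM (counts scaled to a common total) in LApc and 113 in LApcL. The mitosis sum there was higher in LApcL, 23.8 against 19.7 UMIs per 10000. The cause was not tested. The lowest ratios were those of Ccne1, Cks2 and Slbp. Ccne1 differed 1.04-fold (0.903 to 1.20) and was detected in 14.8% of LApcL cells (13.3 to 16.5) and 14.99% of LApc cells (13.5 to 16.6), a difference within counting error. Cks2 was 1.08-fold higher (1.03 to 1.14), in 52.8% (50.5 to 55.0) against 53.3% of cells (51.2 to 55.4), with 2.59 against 2.37 UMIs per positive cell. Slbp was 1.13-fold higher (1.06 to 1.21), in 54.9% (52.6 to 57.1) against 50.3% of cells (48.2 to 52.5). Pcna was close to these, 1.14-fold higher (1.08 to 1.20), in 65.1% (63.0 to 67.3) against 59.0% of cells (56.9 to 61.1), with 2.56 against 2.48 UMIs per positive cell. Of these 4 genes, Cks2, Slbp and Pcna were detected in over 50% of the cells of both libraries.

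A ratio of levels has 2 parts, the share of cells with a UMI and the number of UMIs in such a cell. UMIs per positive cell cannot be under 1, so for genes near that value a higher level in every cell also appears as a larger share, and the 2 cannot be told apart. Over the mitosis genes the median log2 ratio was 0.65 for the share and 0.0020 for UMIs per positive cell, and over the S phase genes 0.55 and 0.055. The share had the larger ratio for 24 of 26 mitosis genes and 17 of 18 S phase genes. The clearest exception was Hmgb2, detected in 93.6% of LApcL cells and 82.8% of LApc cells, with 9.61 against 6.88 UMIs per positive cell. The share in WT enterocyte-marker-high cells is set beside these shares, at a median depth of 41188 UMIs before thinning against 36107 in the other WT cells. It is not a base without expression, as 7.09% of these cells had at least 10 mitosis UMIs. In those cells Mki67 was detected in 11.3% (8.72 to 14.3), Cdc6 in 0.575% (0.119 to 1.67), Cenpf in 3.83% (2.36 to 5.86) and Ccne1 in 3.26% (1.91 to 5.16). In the same cells Cks2 was detected in 29.9%, Slbp in 26.6%, Pcna in 42.9% and Hmgb2 in 61.7%; how much of any of these shares is free RNA was not tested.

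**Figure D2:**
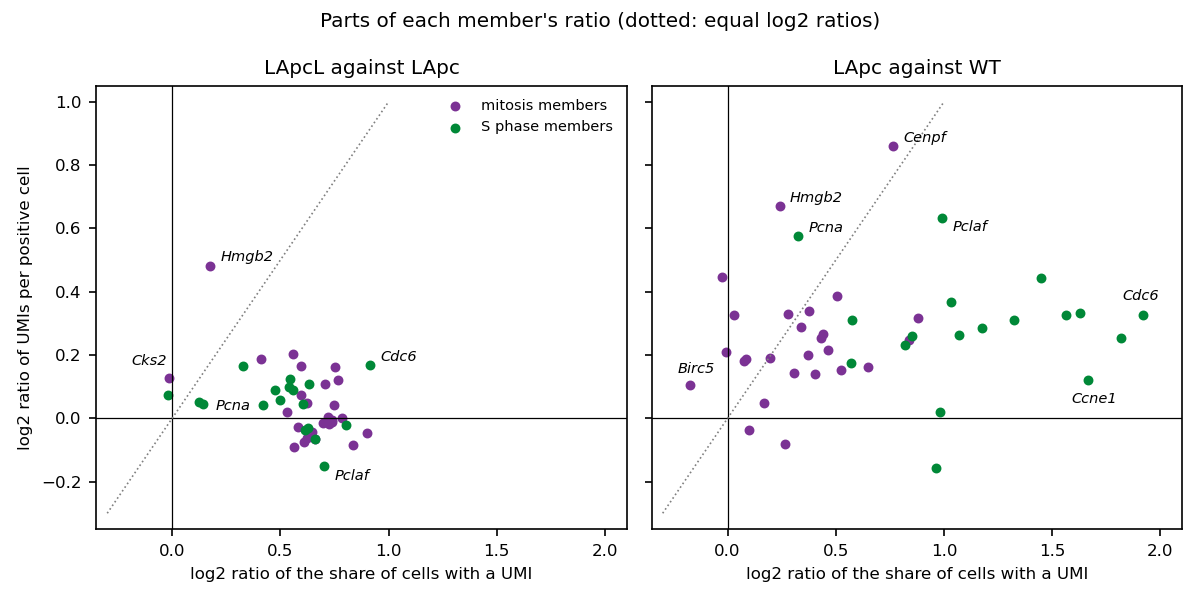
Each point is a gene, placed by the log2 ratio of the share of cells with a UMI (horizontal) and of UMIs per positive cell (vertical), for LApcL against LApc (left) and LApc against WT (right); purple marks mitosis genes, green S phase genes, and the dotted line equal ratios. On the left nearly all points lie along the horizontal axis, with Hmgb2 at 0.48 on the vertical axis, and on the right most points also lie above 0 on it, up to 0.86 for Cenpf.

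LApc against WT asks what the Lgr5-CreERT2;Apc fl/fl genotype goes with. The WT label names no Lgr5-CreERT2 allele, so that allele and the Apc alleles cannot be told apart. The interval after tamoxifen and the library also differ, and the medium may. This comparison uses the same LApc library as the one above, so the values of the 2 are not independent of each other. Over all cells 18 of 18 S phase genes and 25 of 26 mitosis genes had a higher level in LApc, with an interval above 0 for 18 and 22 of them. At least 1.5-fold higher in LApc were 18 of 18 S phase genes and 13 of 26 mitosis genes, where 46% of all 10842 genes were that much higher, and 0 of 44 were 1.5-fold lower, beside 15.7% of all genes. At least 2-fold higher were 14 S phase genes and 3 mitosis genes, beside 27.1% of all genes. The median log2 ratio was 1.43 over the S phase genes, 0.59 over the mitosis genes and 0.50 over all genes, so that relative to all genes the S phase median was high and the mitosis median was not. With the enterocyte-marker-high cells left out of WT, 15 of 18 S phase genes and 2 of 26 mitosis genes, Aurkb and Cenpf, were past 1.5-fold, beside 38.4% of all 10819 genes, and 7 of 18 and 0 of 26 were past 2-fold, beside 21.6%. None was 1.5-fold lower, beside 14.8% of all genes. The medians were then 0.89, -0.0092 and 0.38 over the S phase genes, the mitosis genes and all genes. Intervals lay above 0 for 17 S phase and 5 mitosis genes, and below 0 for 6 mitosis genes. The mitosis median thus depended on whether the enterocyte-marker-high WT cells were counted, in the direction that a removal from WT alone sets. The S phase median stayed above that of all genes either way. In cells of 10000 to 20000 UMIs the S phase median was 0.51, with 8 of 18 past 1.5-fold, and the mitosis median -0.49, and with a mitochondrial limit of 10% the mitosis median was 0.16. By role, the medians over all cells and without the enterocyte-marker-high cells were 2.16 and 1.55 for origin licensing and firing, 1.76 and 1.13 for the helicase, 1.26 and 0.86 for the sliding clamp and 1.08 and 0.62 for nucleotide supply and uracil removal. On the mitosis side, past 1.5-fold over all cells were 4 of 5 spindle genes, 3 of 5 cyclins and Cdk1 partners, 2 of 3 genes of chromosome structure and 2 of 5 of breakdown and checkpoint, and without the enterocyte-marker-high cells 0 genes of these 4 roles. At the centromere 1 of 3 (Cenpf) and of kinases and passengers 1 of 5 (Aurkb) were past it with and without those cells.

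The 3 genes with the highest ratio were all of DNA copying: Cdc6, Gins2 and Mcm2. Cdc6 was 4.74-fold higher in LApc (3.26 to 7.12) and was detected in 2.48% of WT cells (1.68 to 3.53), with 31 UMIs in all, and in 9.39% of LApc cells. Gins2 was 4.21-fold higher (3.29 to 5.46), in 18.4% (16.8 to 20.1) against 5.22% of cells (4.03 to 6.62), with 1.36 against 1.14 UMIs per positive cell. Mcm2 was 3.89-fold higher (3.18 to 4.80), in 25.6% (23.8 to 27.5) against 8.28% of cells (6.79 to 9.98), with 1.39 against 1.10. Without the enterocyte-marker-high cells their log2 ratios were 1.58, 1.52 and 1.33 in place of 2.25, 2.07 and 1.96. All 6 helicase genes were past 1.5-fold with and without those cells. Pcna was 1.87-fold higher in LApc (1.74 to 2.01), in 59.0% against 47.1% of cells (44.3 to 49.96), with 2.48 against 1.67 UMIs per positive cell, so that UMIs per positive cell differed more than the share of cells, and its log2 ratio was 0.90, or 0.71 without the enterocyte-marker-high cells. Cenpf, the highest mitosis gene, was 3.08-fold higher (2.71 to 3.51), in 20.1% against 11.8% of cells (10.1 to 13.8), with 3.53 against 1.94 UMIs per positive cell, and its log2 ratio without the enterocyte-marker-high cells was 0.96 (0.77 to 1.16). At the other end stood Birc5, Cdca3 and Kif11, genes of the passenger complex, mitotic entry and the spindle. Birc5 differed 0.953-fold (0.860 to 1.06), in 18.6% of LApc cells (16.9 to 20.3) and 20.9% of WT cells (18.7 to 23.3). Cdca3 differed 1.04-fold (0.924 to 1.18), in 18.8% (17.2 to 20.5) and 17.5% (15.4 to 19.8), and Kif11 1.14-fold (0.967 to 1.34), in 12.7% (11.3 to 14.2) and 10.6% (8.92 to 12.5). Over all cells the interval held 0 on the log2 scale for these 3 genes and for Aurka. Against WT cells without the enterocyte-marker-high ones, their log2 ratios were -0.57 (-0.73 to -0.41), -0.53 (-0.72 to -0.35) and -0.47 (-0.71 to -0.23), so that all 3 were then higher in WT. Leaving out the enterocyte-marker-high cells could only lower these ratios, as it took cells with lower levels of these genes out of WT alone. A matching removal from LApc was not tested. Mki67 was 1.19-fold higher in LApc over all cells (1.10 to 1.29), and its log2 ratio without those cells was -0.34 (-0.46 to -0.22), at a level of 1.15 in the other WT cells.

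**Figure D3:**
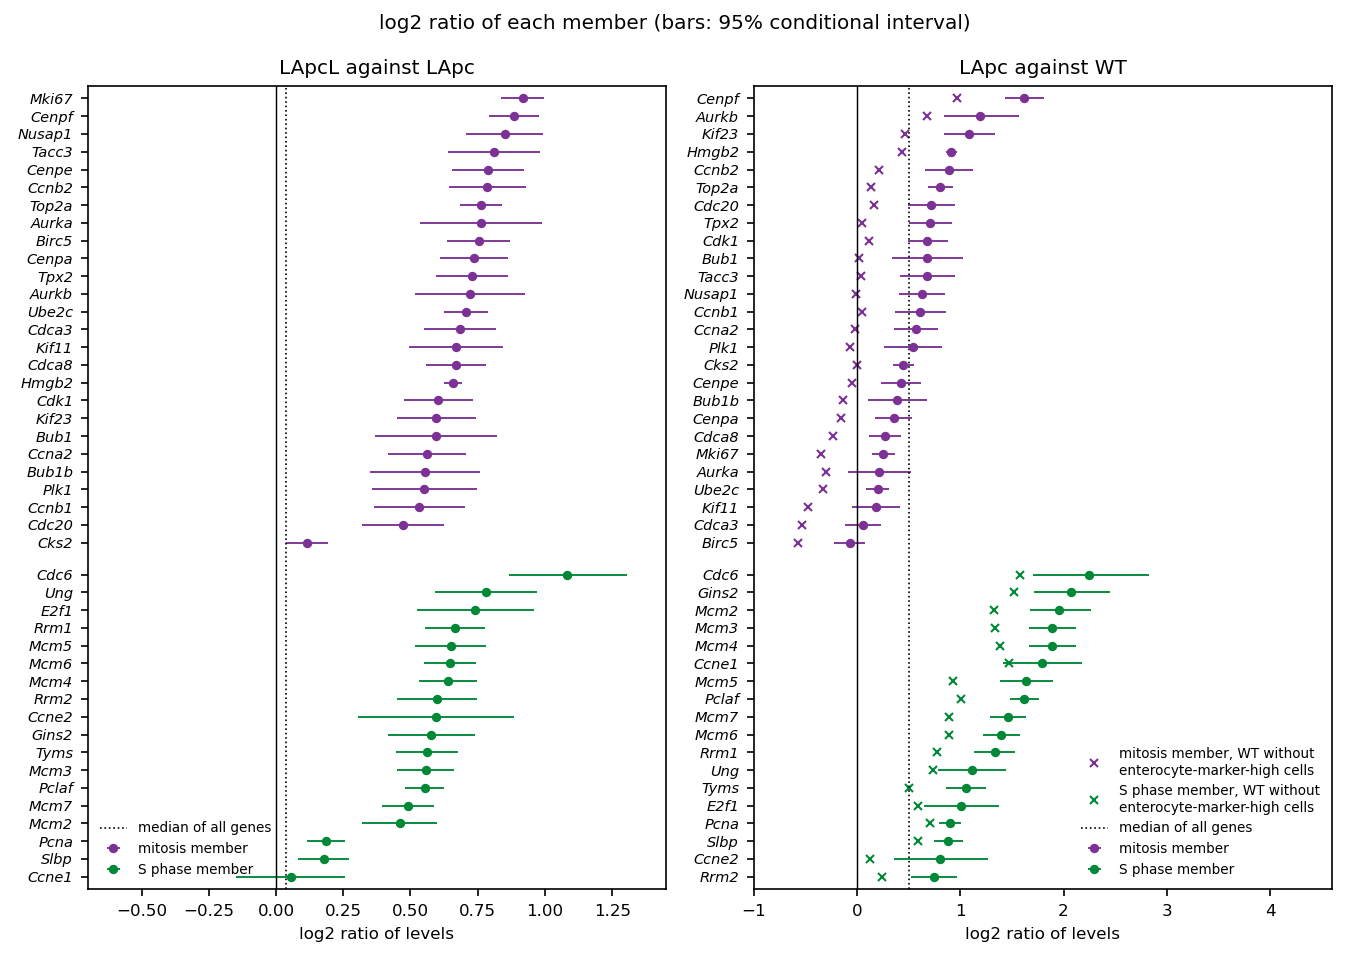
log2 ratio of the level of each gene for LApcL against LApc (left) and LApc against WT (right), mitosis genes in purple above and S phase genes in green below, with 95% conditional intervals; the dotted line is the median of all genes and crosses give the ratio after enterocyte-marker-high cells were left out of WT. On the left both groups lie right of the dotted line, with Ccne1 and Cks2 nearest to it; on the right the S phase genes lie right of the dotted line, and the crosses of the mitosis genes spread on both sides of 0.

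Summed per cell, the transcripts of both gene groups were spread unevenly over the cells, and the share of cells with many of them was largest in LApcL. A cell was called mitosis-high with at least 10 mitosis UMIs of 10000 and S phase-high with at least 10 S phase UMIs, which are ranges of a sum and not cell types. Mitosis-high cells made up 20.2% of the cells in WT (244 cells, interval 17.97 to 22.6), 29.5% in LApc (638, 27.6 to 31.5) and 50.8% in LApcL (981, 48.5 to 53.1). S phase-high cells made up 9.93% (120, 8.30 to 11.8), 28.7% (621, 26.8 to 30.7) and 47.0% (907, 44.7 to 49.2). LApcL thus had the largest share of both, and the S phase-high share of WT was under that of LApc by more than the mitosis-high share was. The paper, with its own choice of cells and clusters, describes the share of proliferating cells as alike in LApc and LApcL organoids. Some cells lay near the limit: 3.73%, 9.44% and 11.9% of cells had 8 to 12 mitosis UMIs, and 6.37%, 11.1% and 15.1% had 8 to 12 S phase UMIs. Doublets, 2 cells in a droplet, were not removed for these values, and leaving out the barcodes most like them moved the log2 ratios of both shares by less than their counting intervals in both comparisons. In WT the enterocyte-marker-high cells were mitosis-high in 7.09% (5.04 to 9.64) and S phase-high in 3.07% (1.76 to 4.93), and the other WT cells in 30.2% (26.8 to 33.8) and 15.2% (12.6 to 18.1). Among the other WT cells the mitosis-high share was thus within counting error of that of LApc, with a log2 ratio of LApc against WT of -0.031 (-0.26 to 0.20), and the S phase-high share was lower than in LApc. That log2 ratio was -0.33 (-0.58 to -0.076) when Hmgb2 was also left out of the sum, and -0.29 (-0.54 to -0.045) when cells from 20 enterocyte marker UMIs on were left out, with WT the higher in both. Counted by genes and not by UMIs, at least 10 of the 26 mitosis genes were detected in 16.5% of the cells of WT, 18.6% of LApc and 31.6% of LApcL, and at least 10 of the 18 S phase genes in 3.89%, 15.7% and 26.9%, in the same order of libraries. The transcripts were concentrated in few cells, most of all in WT and LApc: the 10% of cells with the highest sums held 56.6%, 56.9% and 44.2% of the mitosis UMIs and 49.5%, 41.1% and 31.2% of the S phase UMIs in WT, LApc and LApcL. Once above the limit, cells of LApc and LApcL were alike and those of WT lower: means in WT, LApc and LApcL were 41.7, 47.0 and 46.8 mitosis UMIs per mitosis-high cell. S phase-high cells had means of 18.2, 23.6 and 23.0 S phase UMIs.

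Of S phase-high cells a like share was also mitosis-high in WT and LApc, 70.8% (61.8 to 78.8) and 72.3% (68.6 to 75.8), with 78.5% in LApcL (75.7 to 81.1). Of mitosis-high cells the share that was also S phase-high was lower in WT, at 34.8% (28.9 to 41.2), than in LApc, at 70.4% (66.7 to 73.9), and LApcL, at 72.6% (69.7 to 75.4). Cells that were both S phase-high and mitosis-high numbered 7.04% in WT (5.66 to 8.63), 20.8% in LApc (19.1 to 22.6) and 36.9% in LApcL (34.7 to 39.1). Mitosis-high cells without many S phase UMIs made up 13.2% (11.3 to 15.2), 8.75% (7.59 to 10.02) and 13.9% (12.4 to 15.6), and S phase-high cells without many mitosis UMIs 2.90% (2.03 to 4.01), 7.96% (6.85 to 9.18) and 10.1% (8.79 to 11.5). Neither sum reached the limit in 76.9%, 62.5% and 39.1% of cells. In WT the mitosis-only cells outnumbered those with both, 159 to 85, and in LApc and LApcL the cells with both outnumbered the mitosis-only ones, 449 to 189 and 712 to 269. Leaving the enterocyte-marker-high cells out of WT kept that order, with 134 mitosis-only cells and 73 with both. Across cells, the S phase and mitosis sums had a Pearson correlation of 0.46 in WT (1208 cells), 0.48 in LApc (2161) and 0.35 in LApcL (1931), and Spearman correlations of 0.47, 0.62 and 0.63; cells of 1 library share its culture and its capture, and both sums are parts of the same 10000 UMIs.

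**Figure D4:**
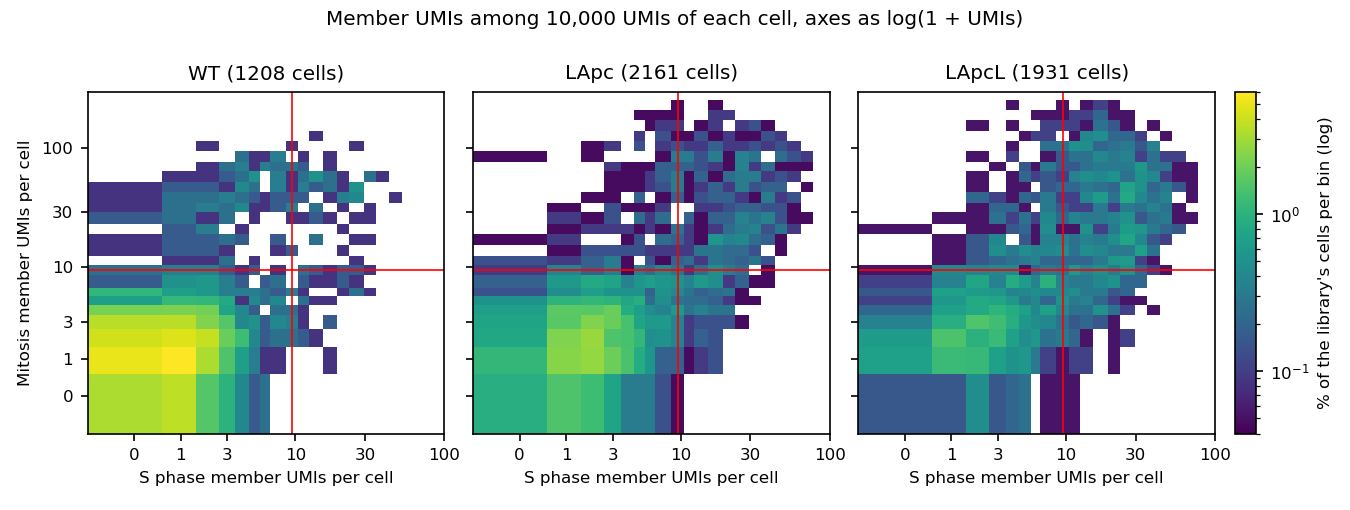
Mitosis UMIs (vertical) against S phase UMIs (horizontal) per cell, each as log(1 + UMIs) among 10000 UMIs, in WT, LApc and LApcL; colour gives the percent of the library's cells in a bin on a log scale, bins widen with the count, and red lines mark 10 UMIs. Cells with few of either fill the lower left, and the upper right field holds 7.04%, 20.8% and 36.9% of the cells.

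**Figure D5:**
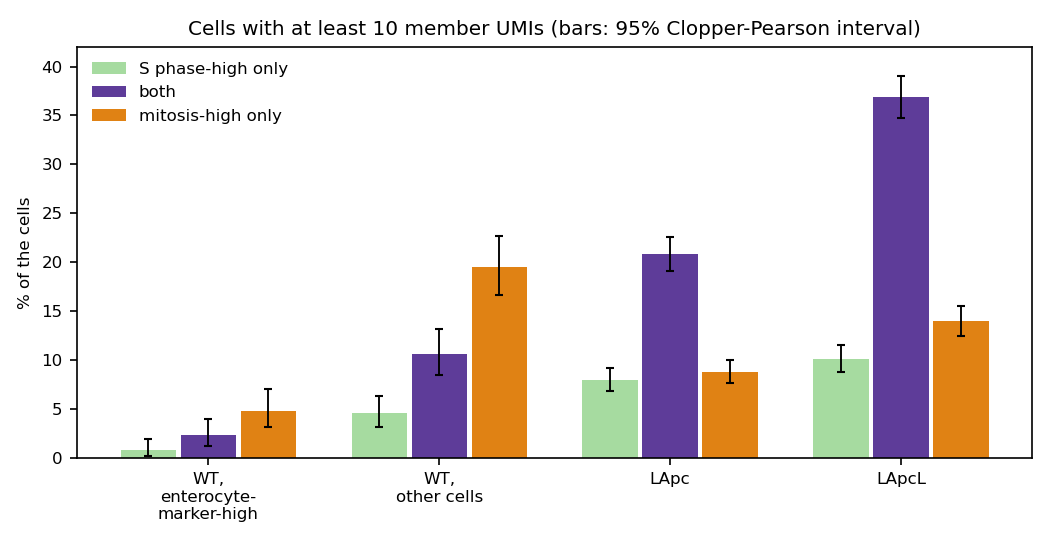
Percent of cells that were S phase-high only (green), both (purple) and mitosis-high only (orange), with 95% Clopper-Pearson intervals, in enterocyte-marker-high WT cells (522), other WT cells (686), LApc (2161) and LApcL (1931). The orange bar is the tallest in both sets of WT cells and the purple bar is the tallest in LApc and LApcL.

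For 8 genes that took no part in the classes, the share of cells with a UMI was set beside the class. Ccnd1, the cyclin of G1 and a Wnt target, was detected in 96.4% of S phase-only cells, 91.0% of cells with both, 76.6% of mitosis-only cells and 78.3% of cells with neither in LApcL. In LApc the shares for Ccnd1 were 89.5%, 85.5%, 68.8% and 54.8%, and in WT 60%, 43.5%, 22.6% and 21.3%. S phase-high cells thus had Ccnd1 more often than mitosis-only cells in each library. Nkd1, a Wnt target that dampens the pathway, went the other way in LApc, at 54.8% of cells with both and 84.8% of cells with neither, and in LApcL, at 64.6% and 78.4%. Lef1 itself was detected in 26.1% of LApc cells with both and 53.0% of those with neither, and in 25.1% and 41.3% in LApcL. The stem cell gene Lgr5 was detected in 22.7% and 19.3% in LApc, 48.0% and 56.0% in LApcL and 16.5% and 7.32% in WT. Cdkn1a, an inhibitor of the cycle, was detected in 84.9% of cells with both and 70.2% of those with neither in LApc, in 68.7% and 76.0% in LApcL and in 76.5% and 76.4% in WT, so that its direction differed between LApc and LApcL. The Paneth cell gene Lyz1 was detected in 3.12% and 5.996% in LApc, 2.67% and 9.14% in LApcL and 5.88% and 11.8% in WT. Npy was detected in 8.91% and 17.2% in LApc, and in 0% of cells with both and with neither in LApcL and WT. Leaving out cells with any Npy UMI before thinning left 1578 of 2161 LApc, 1930 of 1931 LApcL and 1208 of 1208 WT cells. The part of Npy-positive cells in LApcL against LApc was not tested beyond leaving them out. The stem cell gene Olfm4 was detected mainly in WT, in 27.1% of cells with both and 6.14% of those with neither. In WT, 481 of the 929 cells with neither were enterocyte-marker-high, and without such cells the WT shares in cells with both and with neither were 17.8% and 12.5% for Lgr5, 31.5% and 11.8% for Olfm4, 5.48% and 7.59% for Lyz1, 43.8% and 27.2% for Ccnd1 and 75.3% and 72.8% for Cdkn1a, so that the WT contrasts of Lgr5, Olfm4, Lyz1 and Ccnd1 were smaller. All cells were thinned to the same depth for these shares, and cells with both had a higher median depth before thinning than cells with neither, 41774 against 37416 UMIs in WT, 53367 against 30272 in LApc and 45229 against 26529 in LApcL; the part of RNA content in these shares was not tested.

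The share of mitosis-high cells moved with depth before thinning. In LApcL it was 45.5% of cells with 10000 to 20000 UMIs (40.5 to 50.5), 35.4% with 20000 to 40000 (32.2 to 38.8) and 72.1% above that (68.7 to 75.4). In LApc the shares were 25.2% (20.5 to 30.5), 16.4% (14.2 to 18.8) and 47.0% (43.5 to 50.4). In WT they were 38.8% (30.1 to 48.1), 10.7% (8.24 to 13.6) and 25.8% (22.1 to 29.7). LApcL was above LApc in each band. WT was above LApc among the shallowest of these cells, 121 in WT and 309 in LApc, and below it in both deeper bands. For S phase-high cells the shares in the 3 bands were 36.4%, 34.5% and 67.9% in LApcL, 16.8%, 17.97% and 46.1% in LApc and 14.05%, 8.70% and 10.3% in WT. Their order LApcL, LApc, WT thus held in every band, with a difference between LApc and WT in the shallowest band that was within counting error.

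Of the other cell cycle genes, in lists made by function, further mitosis and replication genes were mostly higher in LApcL than in LApc, and the G1 genes and inhibitors were mixed. Of 26 further mitosis genes, 19 were at least 1.5-fold higher in LApcL and 0 lower, with a median log2 ratio of 0.74, and of 18 further replication genes 8 were higher and 0 lower, with a median of 0.56, beside 8.49% higher, 9% lower and a median of 0.037 over all genes. In LApc against WT, 15 of 24 further mitosis genes with a high enough level were at least 1.5-fold higher and 1 lower (Hjurp, a chaperone of Cenpa, log2 ratio -1.05), with a median of 0.63, and 15 of 18 further replication genes were higher and 0 lower, with a median of 1.22, beside 46% higher, 15.7% lower and a median of 0.50 over all genes. Without the enterocyte-marker-high cells 1 further mitosis gene was higher and 2 were lower of 25, with a median of 0.058, and 13 of 18 replication genes were higher, with a median of 0.62, beside 38.4%, 14.8% and a median of 0.38 over all genes, so that the mitosis median lay below that of all genes and the replication median above it. Of the transcription regulators in LApc against WT, 5 were higher and 3 lower of 10, with a median of 0.55, and 2 were higher and 3 lower without the enterocyte-marker-high cells, with a median of 0.071. E2f2 was the lowest of them at -2.82, or -3.05 without those cells; Hjurp and E2f2 were named after their values were seen. Of the further mitosis genes, the furthest in LApcL against LApc were Ttk, a kinase of the spindle checkpoint (0.0364 UMIs per 10000 in WT, 0.0583 in LApc and 0.128 in LApcL), and Espl1, the protease separase (0.0174, 0.0333 and 0.0673), which were 2.19-fold and 2.02-fold higher in LApcL. Of the transcription regulators 4 of 11 were at least 1.5-fold higher and 0 lower in LApcL. Foxm1, the mitotic factor, had 0.0447, 0.0629 and 0.131, 2.07-fold higher in LApcL, and E2f7, a repressor among the E2F proteins, had 0.0281, 0.0264 and 0.0528, 2.00-fold higher. Mybl2, which encodes B-Myb, had 0.0406, 0.0930 and 0.142, 1.53-fold higher in LApcL. Among 6 G1 cyclins and kinases, 1 was past 1.5-fold, Cdk6, named after its value was seen, with levels of 0.492, 1.87 and 3.71. Ccnd1 had 0.454, 3.00 and 3.75, a log2 ratio of 2.73 for LApc against WT, 2.40 without the enterocyte-marker-high cells, and of 0.32 for LApcL against LApc. Of 6 inhibitors, 1 was at least 1.5-fold higher and 2 were at least 1.5-fold lower in LApcL. Cdkn1c, the inhibitor p57, had 0.183 in WT, 1.98 in LApc and 0.335 in LApcL, a log2 ratio of -2.56 for LApcL against LApc (-2.69 to -2.44). Cdkn2a, which encodes p16 and p19, had 0.00166 in WT (2 UMIs), 0.255 in LApc and 0.139 in LApcL, a log2 ratio of -0.87 (-1.09 to -0.66) for LApcL against LApc and of 7.27 (5.41 to 10.3) for LApc against WT, 6.45 without the enterocyte-marker-high cells. Cdkn1a, the inhibitor p21, had 2.30, 3.73 and 2.85, a log2 ratio of -0.39 for LApcL against LApc (-0.44 to -0.34). These 3 inhibitors were highest in LApc, and the other 3, named after their values were seen, were not: Cdkn2c had 0.0513, 0.0403 and 0.0715, Cdkn1b 0.617, 0.437 and 0.463 and Cdkn2b 0.719, 0.1398 and 0.109 in WT, LApc and LApcL.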

How the data were processed

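Droplet-based 3′ scRNA-seq counts were taken as deposited, 1 library in each of 3 groups. The authors made them as whole-number UMI counts per gene and barcode, with no normalisation, on mouse build mm10, and per the file headers with Cell Ranger 6.0.1, where the submitters' processing notes name version 2.1.1. The files held 11411 (WT), 10706 (LApc) and 12068 (LApcL) barcodes and 87185429, 118867221 and 112057783 UMIs.

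Barcodes of 1 library with at least 10000 UMIs and at most 20% of UMIs from 13 mitochondrial genes were thinned without replacement to 10000 UMIs (seed 1). Of those with at least 10000 UMIs, 10, 11 and 7 were left out because another library held the same barcode. Exact 95% intervals were used (Poisson for levels, Clopper-Pearson for shares, conditional binomial for ratios). They cover counting error only. Ratios over all genes used those with at least 0.05 UMIs per 10000 in either library. On counts simulated as Poisson draws with 200 genes changed 2-fold, intervals covered the true ratio for 95.4% of 10496 genes (LApcL against LApc) and 95.2% of 10842 (LApc against WT). The direction of 200 of 200 was recovered in both. These draws followed the assumption of the intervals and held no clustering of UMIs in cells, so the coverage checks the calculation only. In the data the UMIs of these genes were concentrated in few cells. The intervals of levels and ratios do not cover that spread between cells. Scrublet called 0, 2 and 2 doublets and so did not work, so doublets were kept, and removal of the highest scores at 0.8% per 1000 barcodes was an alternative. Promoters are RefSeq's.

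The genes and lists were chosen with earlier results of these data known. Full values were given for Mki67, Pcna and the 3 highest and 3 lowest members of each comparison. Other cell cycle genes were named when past 2-fold in LApcL against LApc, with Ccnd1, Foxm1, Mybl2, Cdkn1a and Cdkn2a, and Cdk6, Hjurp, E2f2, Cdkn1b, Cdkn2b and Cdkn2c were named after their values were seen. Alternatives covered depth, filters, scaling, doublets, class limits, folds and the enterocyte-marker-high cells. Python 3.11.15, numpy 2.4.6, scipy 1.17.1, scanpy 1.11.5 and matplotlib 3.10.9 were used.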

Additional observations from a re-analysis of the deposited data

Results flagged for a closer look

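In 2 kinds of barcodes kept out of the comparisons, mitosis transcripts were more frequent in LApc and LApcL than in the same kind of WT barcodes. Among barcodes of a single library with at least 10000 UMIs and over 20% mitochondrial UMIs, 51.9% were mitosis-high in LApc (153 of 295, interval 45.999 to 57.7) and 63.3% in LApcL (164 of 259, 57.1 to 69.2), beside 26.7% in WT (114 of 427, 22.6 to 31.2). In the barcodes that occurred in more than 1 library, the 26 mitosis genes had 4.34 UMIs per 10000 in LApc and 4.75 in LApcL, beside 2.64 in WT. Marker genes of 2 cell types were both present: in the shared barcodes the endothelial gene Pecam1 stood at 1057, 968 and 972 CPM (counts scaled to a common total) in WT, LApc and LApcL, and the epithelial gene Epcam at 24.1, 146 and 144, lowest in WT as the mitosis genes were. What these differences come from was not tested.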

How the results depend on the processing

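Values here are log2 ratios unless called counts, which are genes at least 1.5-fold higher. For LApcL against LApc, the main values were a mitosis median of 0.70, a mitosis count of 20, a mitosis-high share of 0.78, an S phase median of 0.59, an S phase count of 9, an S phase-high share of 0.71 and an S-to-mitosis balance of -0.17. All medians and shares, and the Mki67 ratio, stayed above 0 under each alternative run, with mitosis medians from 0.58 to 0.75. None of these alternatives used barcodes under 5000 UMIs. In single-library barcodes under 10000 UMIs, Mki67 had 116 CPM in LApc and 113 in LApcL. Balance was -0.21 without thinning and -0.12 with all genes weighted equally, and in cells of 10000 to 20000 UMIs it turned to 0.39, where the counts were 13 and 16, the S phase median 1.16 and the S phase-high share 1.26. A limit of 5 UMIs for the classes gave shares of 0.50 (mitosis) and 0.46 (S phase). The S phase count was 5 without Npy-positive cells, and at 2-fold the counts were 0 and 1.

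For LApc against WT, the main values were 0.59, 13, 0.55, 1.43, 18, 1.53 and 0.69 in the same order, with Mki67 at 0.26. S phase medians, S phase-high shares and balance stayed above 0 in every alternative run, and the mitosis values did not. Without enterocyte-marker-high cells the mitosis median was -0.0092, the count 2, the mitosis-high share -0.031, the S phase median 0.89, the S phase-high share 0.92, the balance 0.77 and Mki67 -0.34. With such cells taken from 20 marker UMIs these were -0.26, 1, -0.29, 0.61 (count 10), 0.68, 0.80 and -0.57, and from 100 marker UMIs 0.12, 3, 0.10, 1.002 and 1.001, with Mki67 at -0.21. In cells of 10000 to 20000 UMIs the mitosis median was -0.49, the count 2, the mitosis-high share -0.58, the S phase median 0.51 (-0.25 to 1.26), its count 8, the S phase-high share 0.30 (-0.57 to 1.24), the balance 0.47 and Mki67 -0.75. From 5000 UMIs on, the mitosis median was 0.33, the count 7, the shares 0.30 and 1.24 and Mki67 -0.29. A mitochondrial limit of 10% gave 0.16, 5, 0.19, 1.11 (S phase median) and 1.06 (S phase-high share). Median-of-ratios factors gave 0.32, 5 and 1.16 (S phase median), with Mki67 at -0.016. The S phase median was 1.66 without thinning, the S phase-high share was 1.23 and 2.00 at limits of 5 and 20 UMIs, and the mitosis count at 2-fold was 3. Balance was 0.53 without the top and bottom 1% by genes detected, 0.61 without the highest Scrublet scores and 0.85 with equal weights.

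Further alternatives were chosen after seeing the data. Without Hmgb2 the mitosis-high share was 0.27 and the balance 0.82 for LApc against WT, and -0.33 and 0.93 when the enterocyte-marker-high cells were also left out. Leaving those cells out within 10000 to 20000 UMIs gave a mitosis median of -0.75, a count of 1, a mitosis-high share of -0.81, an S phase median of 0.34 (-0.55 to 1.04), a count of 6, an S phase-high share of 0.18 (-0.79 to 1.28), a balance of 0.57 and Mki67 at -1.16. The ranges in parentheses hold 0; for a share they are the counting interval, and for a median the medians of the genes' lower and upper bounds. As LApc and LApcL held no such cells, their comparison in that setting repeated the values at 10000 to 20000 UMIs: counts of 13 and 16, 1.16, 1.26 and 0.39. Apart from the change of cells or genes that each setting makes, the cause was not tested. No paired analysis was possible because each group had 1 library. That also means that no library could be left out, and that the spread between mice and cultures is unknown.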

Other observations

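In the same shared barcodes, which held Pecam1 as well as Epcam, the 18 S phase genes had 3.597 UMIs per 10000 in WT, 3.90 in LApc and 4.37 in LApcL, an S-to-mitosis ratio of 1.36, 0.899 and 0.920. Barcodes of a single library under 10000 UMIs, which were not used for the levels, had 16.2, 19.7 and 23.8 mitosis UMIs per 10000 in WT, LApc and LApcL and 4.34, 7.72 and 8.93 S phase UMIs, with ratios of 0.267, 0.391 and 0.375. Their order among the libraries was that of the deep cells for both sums and for the ratio, but not for Mki67, which had 213 CPM (counts scaled to a common total) in WT, 116 in LApc and 113 in LApcL.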
